A study of Drosophila melanogaster with 6 samples.

Results

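The locus of h (hairy) is the stretch of chromosome arm 3L from 8620001 to 8700000 on dm3, 80 kb that hold the gene and its flanks. It was chosen by the count of larval Cmi peaks, because its right part, from 8650001 to 8700000, is the 50 kb window of the main arms with the most of them. That window had 20 larval peak midpoints. The next 50 kb windows had 16 each and lay on 3L (18800001 to 18850000) and 3R (9850001 to 9900000). The high larval count is therefore how the locus was found and not a result. Across the 4 peak lists, 70 of 37144 peaks overlapped the locus, namely 16 of 15372 embryonic, 21 of 6487 larval, 20 of 9236 prepupal and 13 of 6049 S2 peaks.

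The peaks come from ChIP-seq, the sequencing of DNA precipitated with a protein, here with antiserum against Cmi (also Lpt). The series has 6 samples. White prepupae, larvae in the wandering phase of the third instar and S2 cells each gave 1 ChIP and 1 input library, and the labels give the genotype Y cn bw sp to all of them, the S2 cell line included. Larvae and prepupae were whole animals, so the tissue in which a peak arose is not known, and how many animals went into a library is not stated in the labels. The embryo list, which is named E0-8 and whose embryos are given no age in the labels, rests on data published earlier and has no sample in the series. With 1 library a group there is no replicate error, no comparison below carries a test, and the lists hold positions only, with no height and no depth.

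Cmi is part of the MLR complex, which contains the histone methyltransferase Trr and acts mainly at enhancers, where it places a monomethyl mark on histones. The h gene encodes a basic helix-loop-helix repressor of the HES family that works with the corepressor Groucho. It is a primary pair-rule gene, whose stripes in the early embryo are driven by separate enhancers upstream of the gene, and it acts again in the imaginal discs, in the patterning of sensory bristles and ahead of the morphogenetic furrow of the eye. In the RefSeq table at hand, which uses Release 6 of the genome, the gene is listed as hry (FBgn0001168). On one side its nearest entries there are Arr2, an arrestin of photoreceptors, and Pex7, an import receptor of peroxisomes, and on the other the RNA gene lncRNA:CR44526 and SrpRbeta, a subunit of the signal recognition particle receptor. These are names in order along the arm, and because the builds differ no peak was placed relative to the start or the exons of any gene.

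The locus was covered by Cmi peaks on very unequal scales. S2 peaks covered 34623 bp or 43.3% of it, larval peaks 21252 bp or 26.6%, prepupal peaks 16070 bp or 20.1% and embryonic peaks 9717 bp or 12.1%. Over 3L, up to the highest peak end of any list, the corresponding shares were 6.05% for S2, 6.57% for larval, 6.28% for prepupal and 11.0% for embryonic peaks. The embryo list, which covered the most of the arm, thus covered the least of the locus, and its share there was close to its share of the arm. The order by covered sequence was also not the order by peak number, since the 13 S2 peaks were the fewest and covered the most.

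**Figure D1:**
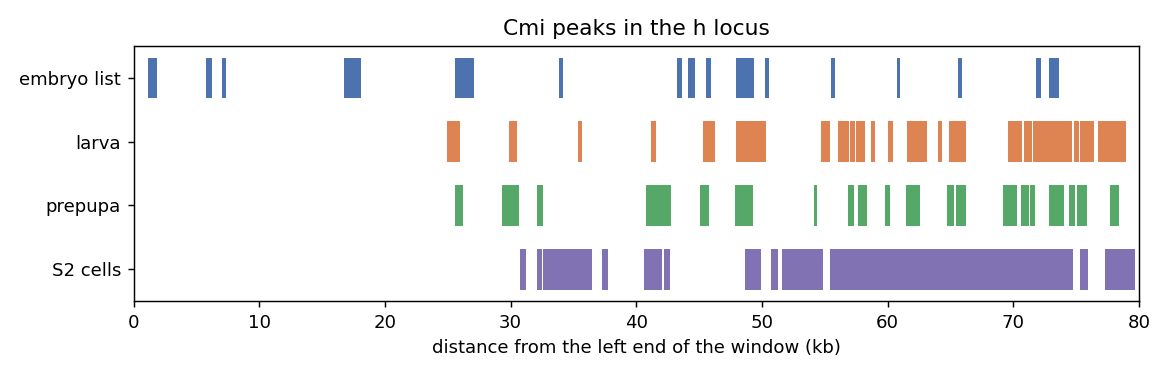
Map of the 70 Cmi peaks in the h locus, with the distance from the left end of the window in kb on the horizontal axis and 1 row for each list, each box being 1 peak. Embryonic peaks are spread over the whole window, and the other lists are crowded in its right part. The S2 row holds a 17454 bp peak, whose left neighbour is only 53 bp away and appears joined to it at this scale. Narrower S2 peaks follow to its right.

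The left 30 kb and the right 50 kb of the locus differed. The right part is the 50 kb window by which the locus was chosen, so the larval contrast follows from that choice. Lists that share peaks with the larva list are not independent of it. From 8620001 to 8650000 there were 5 embryonic, 1 larval, 2 prepupal and 0 S2 peaks by midpoint, covering 14.3%, 3.97%, 4.44% and 0% of the sequence. From 8650001 to 8700000 there were 11, 20, 18 and 13 peaks in the same order of lists, covering 10.8%, 40.1%, 29.5% and 69.2%. The embryo list was thus the only one with a larger covered share on the left. Its first 4 peaks, at 8621157 to 8621820, 8625767 to 8626263, 8627022 to 8627309 and 8636758 to 8638052, had no counterpart in any other list. Such peaks were common in the whole embryo list. Its 15372 peaks gave 8603 merged regions that held no other list, each with at least 1 such peak. The first peak of the other animal stages lay farther right, at 8644916 in larvae and 8645559 in prepupae, and the first S2 peak at 8650760.

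Within the right part the lists changed places from one 10 kb bin to the next. From 8660001 to 8670000 they were closest together, with 27.5% of the bases under embryonic, 33.9% under larval, 40.5% under prepupal and 32.4% under S2 peaks. This was also the embryonic maximum. From 8650001 to 8660000, S2 peaks covered 52.6%, against 11.0% in prepupae, 8.50% in larvae and 2.94% in embryos. From 8680001 to 8690000, S2 peaks covered the bin entirely (100%), larval peaks 42.5%, prepupal peaks 34.7% and embryonic peaks 5.85%. Larval coverage had its maximum in the last bin, from 8690001 to 8700000, at 81.6%, above S2 cells (77.3%), prepupae (44.5%) and embryos (11.9%).

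**Figure D2:**
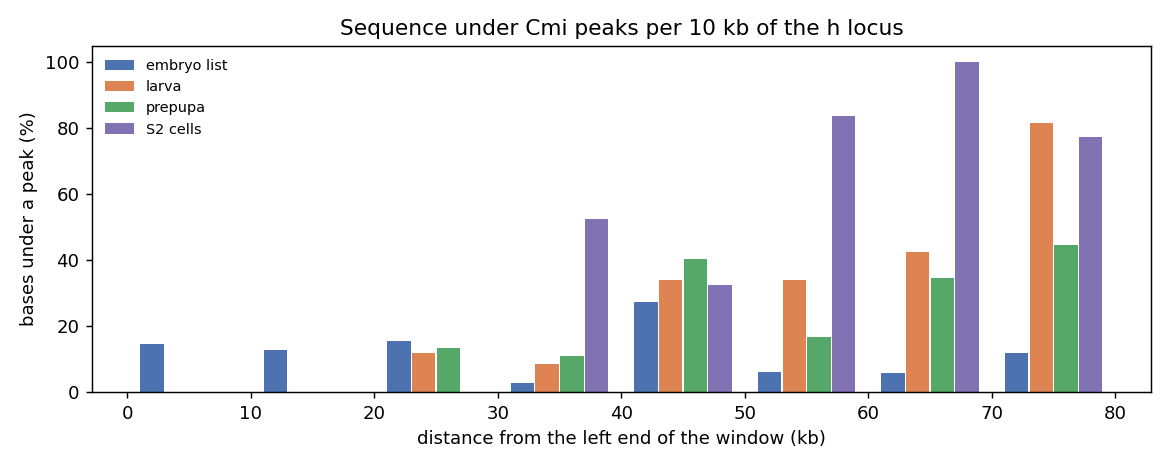
Percent of bases under a Cmi peak in each 10 kb bin of the h locus, with the distance from the left end of the window in kb on the horizontal axis and 1 bar for each list. S2 bars reach 100% in the bin from 60 to 70 kb, larval bars peak at 81.6% in the last bin, and embryonic bars stay at or below 27.5%.

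The limits of the locus cut the peak groups unequally. To the left, the nearest peak outside was 3369 bp away in embryos and 22460 bp in larvae, but 75424 bp for the prepupa list and 76171 bp for the S2 list. The last peaks inside ended at 8693607 (embryo), 8698956 (larva), 8698436 (prepupa) and 8699677 (S2). To the right, the next prepupal peak began 302 bp and the next S2 peak 284 bp beyond the limit, with widths of 396 and 412 bp. The next embryonic peak was 6485 bp and the next larval peak 13628 bp beyond it.

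Set against the 304 other windows of 80 kb on 3L, tiled so that the locus was 1 of them, the locus stood high for all lists except the embryonic one. Larval peaks numbered 21, against a median of 4 and a maximum of 22, and 2 other windows had at least as many. Prepupal peaks numbered 20 (median 6, maximum 47), with 16 windows at or above, and S2 peaks 13 (median 2, maximum 21), with 21 windows at or above. The 16 embryonic peaks, beside a median of 9 and a maximum of 40, were matched or passed by 78 windows. The larval place follows from the choice of the locus.

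By covered sequence the locus ranked higher in S2 cells than by peak number. Its 34623 bp of S2 peaks were 16.9 times the median window of 2051.5 bp, and 3 windows had more. Larval peaks covered 5.84 times the median of 3638 bp, with 6 windows above, and prepupal peaks 4.94 times the median of 3251 bp, with 20 above. Embryonic peaks covered 1.39 times the median of 6967.5 bp, with 113 above. Without the widest S2 peak, the S2 cover was 17169 bp and 22 other windows had at least as much. The 3 windows with more S2 sequence held 7 to 12 larval peaks and from 7854 to 47549 bp under embryonic peaks, a range that takes in the embryonic cover of the h locus.

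**Figure D3:**
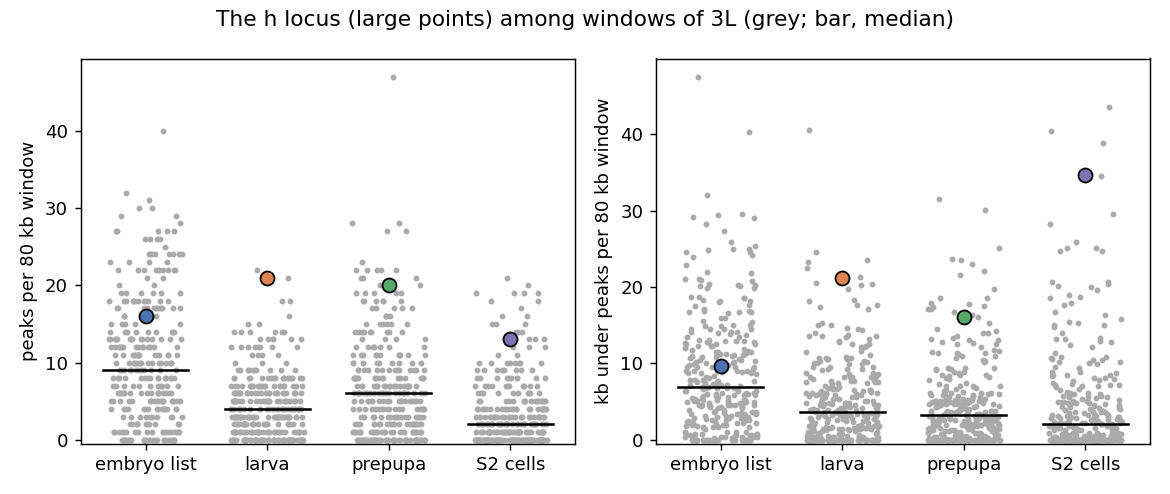
Peaks per window (left) and kb under peaks per window (right) for the 305 windows of 80 kb on 3L, by list. Grey points are the 304 other windows, black bars their median and large points the h locus, which lies far above the median for larvae, prepupae and S2 cells and nearer to it for the embryo list, at 9.72 kb of covered sequence.

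Apart from the locus, the windows of 3L with the most larval peaks were 4 in number, since 2 of them tied at 18, and their cover varied widely. The window from 17980001 to 18060000 had 22 larval, 27 prepupal, 21 S2 and 17 embryonic peaks, with 40614, 31539, 25943 and 32095 bp under them. The window from 18780001 to 18860000 had 21 larval peaks over 21384 bp, nearly the larval values of the h locus, but 17676 bp under embryonic and 9407 bp under S2 peaks. In the window from 9340001 to 9420000, 18 larval peaks covered 23587 bp, embryonic peaks 29190 bp and S2 peaks 5213 bp. In the tied window, from 16140001 to 16220000, 18 larval peaks covered 23253 bp, embryonic peaks 3464 bp and S2 peaks 8533 bp. The h locus had more S2 sequence than each of these 4 windows, and its embryonic cover lay within their range of 3464 to 32095 bp. Sequence under all 4 lists at once came to 1674 bp in the h locus, against 862 to 14198 bp in these windows.

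Larval peaks in the locus were 327 to 3071 bp wide with a median of 708 bp, beside 792 bp for the whole larva list. Prepupal peaks were 264 to 1921 bp wide with a median of 699.5 bp, beside 491.5 bp, and 14 of the 20 were wider than their list's median. Embryonic peaks were 282 to 1548 bp wide with a median of 427 bp, beside 537 bp, and 6 of the 16 were wider than that. S2 peaks were 424 to 17454 bp wide with a median of 1315 bp, beside 711 bp. The median was therefore higher here than in the list for prepupal and S2 peaks and lower for larval and embryonic ones. Of the 13 S2 peaks, however, 7 were wider than their list's median, and of the 21 larval peaks 10. Both counts are close to the even split that a list median gives, but they do not measure how wide the wider peaks were. The 7 wider S2 peaks included widths of 17454, 3932, 3242 and 2390 bp. These ranked 8, 312, 455 and 724 among the 6049 of the list. The other 6 S2 peaks were 424 to 617 bp wide.

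**Figure D4:**
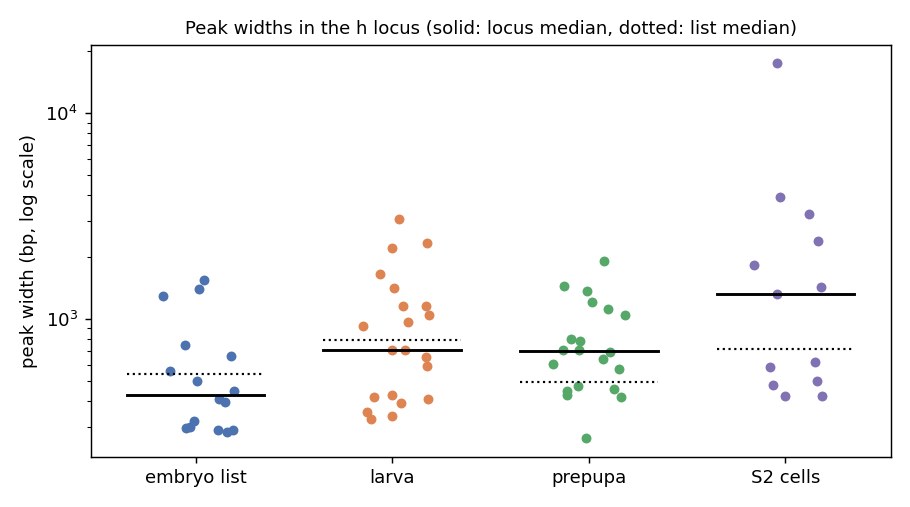
Width of each Cmi peak in the h locus in bp, on a log scale, by list, with solid lines at the median of the locus and dotted lines at the median of the whole list. The solid line lies above the dotted one for prepupae (699.5 against 491.5 bp) and S2 cells (1315 against 711 bp) and below it for embryos (427 against 537 bp) and larvae (708 against 792 bp).

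The widest S2 peak, from 8677273 to 8694726, took up 17454 bp and was number 8 by width in its list. Larvae had 10 separate peaks in this stretch with a median width of 648 bp, covering 56.3% of it. Prepupae had 11 with a median of 603 bp, covering 41.2%, and embryos 4 with a median of 372.5 bp, covering 10.2%. Of the stretch, 11466 bp or 65.7% lay under a peak of at least 1 animal stage. Within this single S2 peak each animal stage thus had several narrower peaks, and 5988 bp of it lay under none of them.

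The widest larval peak, from 8691570 to 8694640 (3071 bp), lay at the right end of that S2 peak and overlapped 3 prepupal and 2 embryonic peaks. The widest prepupal peak, from 8660807 to 8662727 (1921 bp), overlapped 1 larval and 2 S2 peaks and no embryonic one. The widest embryonic peak, from 8645545 to 8647092 (1548 bp), overlapped a larval and a prepupal peak and no S2 peak. The widest larval and S2 peaks thus overlapped each other, while the widest prepupal and embryonic peaks lay elsewhere, the embryonic one in the left part.

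Larval peaks stood close together, which follows from the choice of the locus. The median gap between neighbouring larval peaks was 723.5 bp in the locus and 4563 bp on 3L, and 6 gaps were under 200 bp, the shortest of 55 bp. For S2 peaks the median gap was 677 bp against 2164 bp on the arm, and for prepupal peaks 1460 bp against 1483 bp, practically the same. For embryonic peaks the median gap was longer in the locus than on the arm, at 4586 bp against 1469 bp. Even so, the locus held 16 embryonic peaks against 9 in the median window, and 20 prepupal peaks against 6. Close neighbours within groups of peaks weigh most in the arm's median gap, so it does not measure peak density. The longest stretch under no list ran from 8627310 to 8636757 (9448 bp), and in all 33046 bp or 41.3% of the locus lay under no peak, against 82.4% of 3L.

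Peaks were counted as shared when they had at least 1 bp in common, and each count is given with the share over the whole list of the same peaks, which is the background to read it against. Larval and prepupal peaks of the locus were mostly shared with each other. Of the 21 larval peaks, 17 (81.0%, exact binomial 95% interval 58.1 to 94.6) overlapped a prepupal peak, where the whole larva list had 68.2%. A larval counterpart was found for 18 of the 20 prepupal peaks (90.0%, 68.3 to 98.8), where the whole prepupa list had 61.5%. The intervals cover counting error over peaks, which are not independent of their neighbours. The whole-list share lies within the interval for larval peaks and below it for prepupal ones. The 4 larval peaks without a prepupal counterpart were 327 to 704 bp wide, and the 2 prepupal peaks without a larval one, at 8652131 to 8652556 and 8674142 to 8674405, were 426 and 264 bp wide.

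Overlap with the embryo list was low at the h locus for all other lists. Of the 21 larval peaks, 5 (23.8%, 8.22 to 47.2) overlapped an embryonic peak, where the whole larva list had 67.0%. Of the 20 prepupal peaks, 5 (25.0%, 8.66 to 49.1) did so, where the whole prepupa list had 54.0%. Of the 13 S2 peaks, 4 (30.8%, 9.09 to 61.4) did so, where the whole S2 list had 55.9%, which lies within that interval. All 5 larval peaks with an embryonic counterpart were among the 10 that were wider than the larval list's median, a class in which 77.4% of the whole list overlapped the embryo list. None of the 11 narrower ones had a counterpart (0 of 11, which allows a share of up to 27.3% at 3 counts), where that class of the whole list had 56.6%. The larval share was below that of the whole list, taken by the same rule, with each way of counting tried: 19.0% against 51.0% with every peak set to 500 bp, 14.3% against 56.7% with the midpoint rule, 19.0% against 62.8% with 50% of the shorter peak covered, 15.8% against 54.4% with equal numbers of widest peaks and 30.0% against 68.4% among peaks wider than the median.

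Seen from the embryo, the shares were close to or above those of the whole list. Of the 16 embryonic peaks, 7 (43.8%, 19.8 to 70.1) overlapped a larval peak beside 30.4% of the whole embryo list, 5 (31.2%, 11.0 to 58.7) a prepupal peak beside 28.0%, and 7 (43.8%, 19.8 to 70.1) an S2 peak beside 24.6%. All of these backgrounds lie within the intervals. The last share turned with the processing, to 6.25% against 15.5% of the whole list with every peak set to 500 bp and to 18.8% against 24.6% without the widest S2 peak. The first setting shortens that broad peak and the second removes it, so embryonic peaks under it lose a counterpart by construction.

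Overlap with S2 peaks was high, and 1 broad S2 peak made up a large part of it. Of the larval peaks, 17 of 21 (81.0%, 58.1 to 94.6) overlapped an S2 peak, where the whole larva list had 44.6%, and of the prepupal peaks 17 of 20 (85.0%, 62.1 to 96.8), where the whole prepupa list had 37.8%. For 9 of these larval and 10 of these prepupal peaks, the 17454 bp S2 peak was the sole S2 counterpart. Among the peaks that did not touch it, a comparison chosen after seeing the data, 7 of 11 larval (63.6%, 30.8 to 89.1) and 6 of 9 prepupal peaks (66.7%, 29.9 to 92.5) overlapped another S2 peak, and the whole-list shares lie within these intervals. When the broad peak alone was removed, which by construction leaves the peaks under it without a counterpart, 8 larval peaks (38.1%) and 7 prepupal peaks (35.0%) overlapped an S2 peak. With every peak set to 500 bp the larval share was 23.8%, against 28.9% of the whole list, and the prepupal share 25.0%, against 22.0%. That setting also cuts the broad peak to 500 bp, so peaks under it but away from its middle lose this counterpart by construction. Conversely, 8 of the 13 S2 peaks (61.5%, 31.6 to 86.1) overlapped a larval peak and 9 (69.2%, 38.6 to 90.9) a prepupal peak. The whole S2 list had 47.4% and 41.1%, which lie within these intervals. With every peak set to 500 bp both shares were 38.5%, against 31.3% and 31.7% of the whole list.

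**Figure D5:**
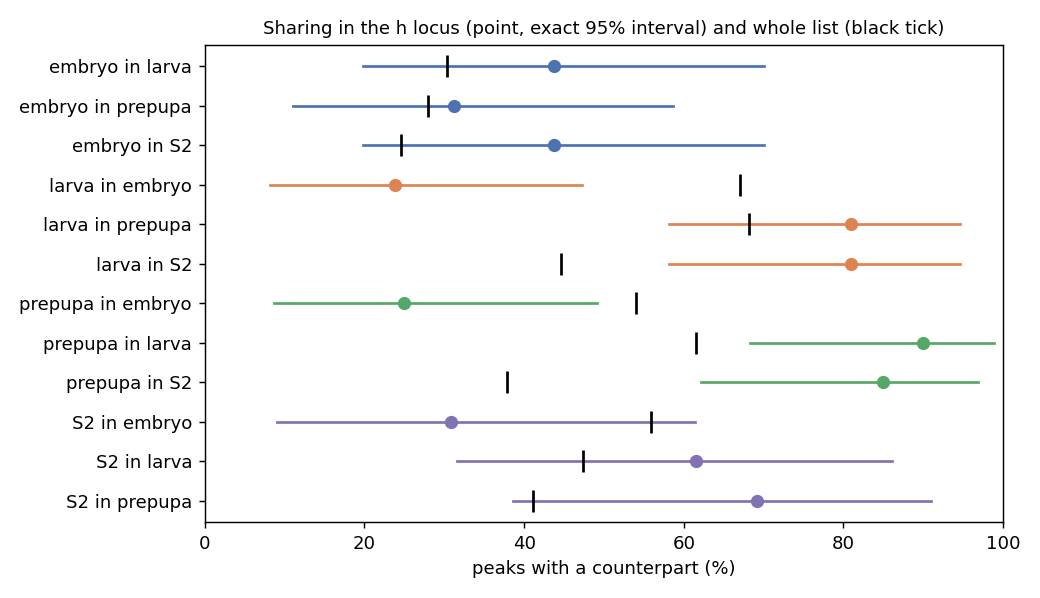
Percent of the peaks of one list in the h locus that overlap a peak of another list, for the 12 ordered pairs of lists. Points with lines are the locus with its exact binomial 95% interval over peaks, and black ticks are the whole list. The larval and prepupal points lie left of their tick for the embryo list (23.8% against 67.0%, 25.0% against 54.0%) and right of it for the S2 list (81.0% against 44.6%, 85.0% against 37.8%), where 1 broad S2 peak is the sole counterpart of 9 larval and 10 prepupal peaks.

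Base by base the picture was similar, with the S2 list weighing by its width. Of the 21252 bp under larval peaks, 10994 bp (51.7%) lay under prepupal, 15429 bp (72.6%) under S2 and 3725 bp (17.5%) under embryonic peaks. On the whole arm these shares were 60.6%, 42.2% and 54.3%. Larval and prepupal peaks thus shared a smaller part of the larval sequence here than on 3L, while the share of larval peaks that met a prepupal one had the whole list's 68.2% within its interval. Of the prepupal sequence, 68.4% lay under larval peaks, against 63.4% on 3L, and 19.6% under embryonic peaks, against 47.9%. Sequence under larval, prepupal and S2 peaks together came to 8497 bp, of which 1674 bp (19.7%) were also under an embryonic peak, against 68.1% of such sequence on 3L.

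Places common to all 4 lists made up a small part of the locus. That part was larger than on 3L by all bases, but smaller by the bases under a peak. Under no peak lay 41.3% of the locus, against 82.4% of 3L. Of the 304 other windows of 3L, 66 had at least as much sequence under all 4 lists and 153 had none. Sequence under all 4 lists formed 3 runs, from 8668629 to 8669268 (640 bp), from 8685606 to 8685893 (288 bp) and from 8692862 to 8693607 (746 bp), which made up 2.09% of the locus against 1.30% of 3L. In each list 3 peaks overlapped all 3 other lists. That was 3 of 21 larval peaks (14.3%, 3.05 to 36.3), where the whole list had 27.2%, 3 of 20 prepupal peaks (15.0%, 3.21 to 37.9), where it had 23.7%, 3 of 13 S2 peaks (23.1%, 5.04 to 53.8), where it had 29.6%, and 3 of 16 embryonic peaks (18.8%, 4.05 to 45.6), where it had 12.8%. All of these backgrounds lie within the intervals. In the first of the runs an embryonic peak of 1393 bp, from 8667955 to 8669347, met a larval peak of 2350 bp, a prepupal peak of 1439 bp and an S2 peak of 1315 bp.

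When all peaks that overlap or touch were merged, the locus fell into 18 regions. A peak of all 4 lists was present in 2 of them, from 8667830 to 8670539 (2710 bp) and from 8671579 to 8696447 (24869 bp). The long one chained 5 embryonic, 14 larval, 13 prepupal and 4 S2 peaks, which need not all overlap each other. These 2 were 11.1% of the regions, beside 7.83% of the 19648 regions of the whole series. A further 5 regions (27.8%, beside 9.57%) held 3 lists, 2 (11.1%, beside 15.3%) held 2 lists and 9 of the 18 held 1 list, beside 67.3%. Of these 9, 6 were embryonic and 3 were from S2 cells, and no region was larval or prepupal alone. Over the series, 8603 regions were embryonic alone, 2056 prepupal, 1949 from S2 cells and 618 larval, so embryonic ones were the most frequent of this kind there too.

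Of the 16 embryonic peaks 6 had no counterpart, and of the 13 S2 peaks 3. The series had 8603 regions of embryonic peaks alone beside 15372 embryonic peaks, and 1949 of S2 peaks alone beside 6049. Of the 6 embryonic ones, 4 were the left peaks given above, which were 664, 497, 288 and 1295 bp wide. The others were at 8663232 to 8663637 (406 bp) and 8664113 to 8664672 (560 bp). The S2 ones were at 8650760 to 8651239 (480 bp), 8657286 to 8657709 (424 bp) and 8670727 to 8671311 (585 bp), all between 8650001 and the long merged region. The absence of a peak from a list is not evidence that the site was free of Cmi.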

How the data were processed

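The 4 lists of Cmi peaks hold, as deposited by the authors, only positions in 3 columns (chromosome, start, end). The submitters' processing notes name BWA, MACS2 and the build dm3. Tool versions, the threshold for a peak, how inputs were used and whether libraries were pooled are not stated in those notes or the labels. Sequencing depth is unknown. Starts were counted from 1 for printing. Peaks were assigned to the locus by any overlap, cover was clipped at its limits, and each share has an exact (Clopper-Pearson) 95% interval. Windows of 80 kb were tiled along 3L so that the locus was 1 of them. No genome of the build dm3 was at hand, so no sequence is given. The locus and the measures were chosen with earlier results of these data known. Places named are the regions and sequence common to all lists, the widest peak of each list, each peak without a counterpart, the longest empty stretch and the 3 other windows with the most larval peaks, of which the last was tied, so that 4 are given. Other peaks named, such as those at the ends of the locus, were chosen after their values were seen. Interval functions were checked on simulated peaks. Python 3.11.15, numpy 2.4.6, pandas 2.3.3, scipy 1.17.1 and matplotlib 3.10.9 were used.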

Additional observations from a re-analysis of the deposited data

How the results depend on the processing

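Of 231 values recomputed under 13 alternatives, 40 left the range taken as stable. That range was a factor of 1.5 for counts and covered bases. For shares of peaks and for percentages of windows it was the exact binomial interval, over peaks or over windows. The alternative without the widest S2 peak was chosen after seeing the data. With only the wider peaks of each list (above its median), which leaves fewer peaks by construction, the locus held 6 embryonic, 10 larval and 7 S2 peaks, with 6206 bp under embryonic ones. With equal numbers of widest peaks it held 4 embryonic peaks over 4982 bp, of which 75.0% overlapped a larval and 75.0% a prepupal peak. With every peak set to 500 bp, cover follows peak number and the broad S2 peak shrinks, both by construction. Embryonic, larval, prepupal and S2 peaks then covered 8000, 10500, 10000 and 6500 bp, so that S2 cells covered the least. The shares were then 6.25% for embryonic peaks in S2 cells, 23.8% for larval in S2, 25.0% for prepupal in S2, 7.69% for S2 in embryos and 38.5% for S2 in prepupae. With the midpoint rule they were 57.1% for larval peaks in prepupae, 7.69% for S2 in embryos and 38.5% for S2 in prepupae. Without the widest S2 peak, which leaves the peaks under it in the count, S2 cover was 17169 bp and the S2 list was met by 18.8% of embryonic, 38.1% of larval and 35.0% of prepupal peaks. The narrowed locus had 13089 bp under larval peaks.

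The percentage of other windows at or above the locus was 25.7% by embryonic peaks and 37.2% by embryonic bases. These became 41.4% and 43.1% with wide peaks, and 51.3% and 47.4% when every list was reduced to the same number of widest peaks. By embryonic bases it was 25.0% with 500 bp peaks and 44.7% with the widened locus, and by embryonic peaks 32.2% with the narrowed one. For larvae, the narrowed locus gave 0% by peaks (0 of 407 windows) and 4.42% by bases, against 0.658% and 1.97%, and 500 bp peaks gave 0.329% by bases. By prepupal peaks, 5.26% became 2.96% with wide peaks, 1.64% with equal numbers of widest peaks and 10.1% with the narrowed locus. For S2 cells, 6.91% by peaks became 4.10% with the widened locus, and 0.987% by bases became 6.25% with 500 bp peaks and 7.24% without the widest peak. No cause was tested. No paired analysis was possible because there is 1 library per group. Depth, which the lists do not hold, limits every count.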

Other observations

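Among windows of 80 kb on the main arms with at least 10 larval peaks, a comparison chosen after the values of the locus were seen, the h locus stood near one end by its overlap with the embryo list. Of the 153 other such windows, 4 had a share of larval peaks in the embryo list at or below the 23.8% of the locus, and their median was 70.0%. On 3L alone this was 1 of 34 windows, with a median of 68.3%. By the share of larval peaks in the S2 list, 81.0% at the locus, 29 of the 153 windows were at or above it (median 53.3%), and by the share in the prepupa list 55 (median 76.9%). Among the 34 windows of 3L, 3 were at or above the locus by the S2 share (median 53.5%) and 18 by the prepupal share (median 82.5%). No test was made, since the locus was chosen with these lists known.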
